A study of Saccharomyces cerevisiae with 12 samples.

Results

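Transfer RNA (tRNA) links each codon to its amino acid, and several kinds of enzyme prepare it for that task. Aminoacyl-tRNA synthetases charge each tRNA with its cognate amino acid, whereas tRNA modification enzymes alter individual bases or riboses of the tRNA after transcription, which helps it fold, persist and decode. In budding yeast these enzymes are encoded in the nucleus, and many modification genes are counted with the genes of ribosome assembly, whose transcripts depend on TOR, the kinase that rapamycin inhibits. Here the transcripts of 39 such genes were described, 21 for cytosolic aminoacyl-tRNA synthetases and 18 for tRNA modification, out of 5769 genes with values. The members were given as a list of open reading frame (ORF) names, and all 39 had a value on every array. Of these, 37 carry a gene symbol in the RefSeq table of *Saccharomyces cerevisiae* (R64). The remaining synthetase genes are known by ORF name only, *YDR341C* for arginyl-tRNA synthetase and *YHR020W* for prolyl-tRNA synthetase.

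Total RNA was measured on one-color expression arrays, 12 in all, from 4 groups. The groups were *tup1Δ* cells in rapamycin (2 arrays), *tup1Δ* cells in DMSO (2 arrays), wild-type (WT) cells in rapamycin (4 arrays) and WT cells in DMSO (4 arrays). All cells had the BY4741 background, a haploid laboratory strain, and grew in rich YPD medium at 30°C to mid-log phase. Rapamycin was at 100 nM and its solvent control was DMSO at 0.1%, each for 30 min. Each of 4 WT cultures was divided between the 2 treatments, 2 *tup1Δ* cultures were treated in the same way, and the deletion is represented by a single strain. Tup1 is the corepressor that works with Cyc8 at many promoters.

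Values are on the log2 scale after RMA normalization, and a difference of 1 is a 2-fold change. A gene is said to have risen or fallen where the limma fit over all 12 arrays gave a Benjamini-Hochberg adjusted p under 0.05 among the 5769 genes. The *TUP1* transcript checked the labels: it was between 7.95 and 8.23 on the 4 *tup1Δ* arrays, against 13.66 to 13.93 in WT rapamycin and 13.85 to 14.04 in WT DMSO. WT replicates 3 and 4 were very close to each other. The SD of the differences between replicates 3 and 4 was 0.0643 in rapamycin and 0.0647 in DMSO, whereas replicates 1 or 2 differed from replicates 3 or 4 with an SD of 0.243 to 0.287. Replicates 1 and 2 differed from each other with an SD of 0.214 in rapamycin and 0.110 in DMSO. All were counted as separate cultures, which is how the design describes them, and counts that moved with the choice of WT replicates are given beside the results they touch. Signals of different probes do not rank transcripts, so each gene was compared only with itself. In WT DMSO the mean signals were 12.91 to 14.59 for synthetase genes and 9.67 to 12.98 for modification genes, and the part of this brightness gap in the class differences below was not tested.

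Rapamycin lowered the transcripts of both classes in WT, and those of the modification genes by more. All 18 modification genes fell and 14 of them fell at least 2-fold, with a median log2 fold change of -1.45. Of the 21 synthetase genes, 19 fell and 1 fell at least 2-fold, with a median of -0.38. No member of either class rose. Over all genes the median was 0.06, 28.4% fell, 7.8% fell at least 2-fold and 37.8% rose. The modification median minus the synthetase median was -1.07. Within the 4 WT cultures this difference was between -1.16 and -0.99, so that each culture gave it with nearly the same size. In a pooled culture, fewer cells with a transcript and less of it per cell cannot be told apart.

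The ranges of the classes overlapped. In WT, 11 of the 18 modification genes fell below the most reduced synthetase gene, *YHR020W*, and 6 were at -2 or lower. Only *MOD5* among the modification genes was above the median synthetase gene. In each of the 4 WT cultures all 18 modification genes were lower in the rapamycin array than in the DMSO array of that culture, as were 19 to 21 of the 21 synthetase genes. Of all 5769 genes, 2487 had a fitted log2 fold change below 0 for rapamycin in WT. Their share within each culture was not counted.

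**Figure D1:**
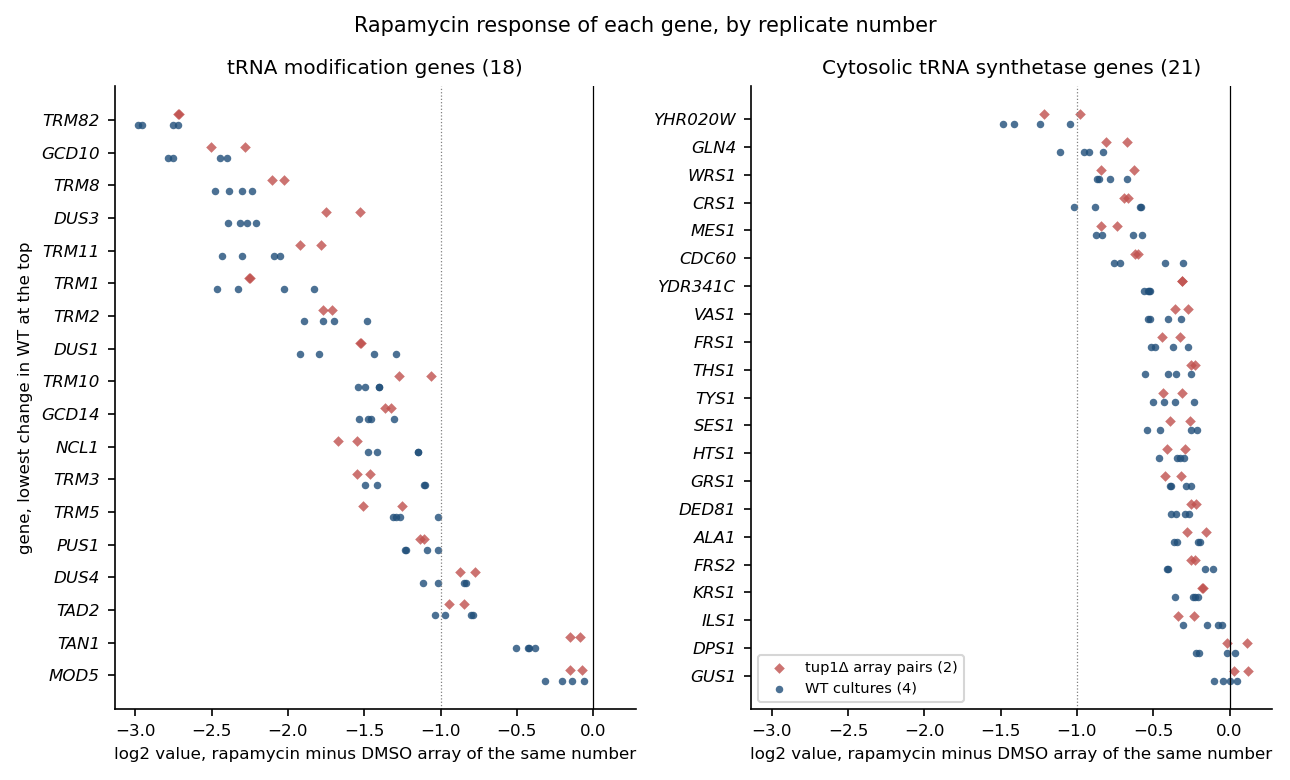
Each point is the log2 value of 1 gene on a rapamycin array minus its value on the DMSO array of the same replicate number, for 2 *tup1Δ* pairs (diamonds) and 4 WT cultures (circles), with the 18 modification genes on the left and the 21 synthetase genes on the right. The dotted line marks a 2-fold decrease. Medians of the modification genes lay between -1.54 and -1.30 and those of the synthetase genes between -0.49 and -0.29 in all 6 pairs.

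The largest decreases among the modification genes were those of methyltransferase subunits. *TRM8* and *TRM82* encode the catalytic and the partner subunit of the enzyme that forms 7-methylguanosine. *TRM82* (YDR165W) read 9.66, 9.66, 9.36 and 9.37 in WT rapamycin, against 12.38, 12.42, 12.34 and 12.33 in WT DMSO. This is a decrease of 7.23-fold (log2 fold change -2.85, SE 0.07, adjusted p = 7.43e-11), and it placed *TRM82* 48th from the lowest of the 5769 genes. *TRM8* (YDL201W) read 9.97, 10.02, 9.74 and 9.84 in WT rapamycin and 12.27, 12.26, 12.22 and 12.23 in WT DMSO (log2 fold change -2.35, SE 0.07, adjusted p = 1.71e-10). In both genes the groups lay more than 2 log2 units apart, and the rapamycin arrays 1 and 2 were slightly above arrays 3 and 4.

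The subunits of the 1-methyladenosine enzyme differed from each other. Gcd10 and Gcd14 form this methyltransferase, which in yeast is known for stabilizing the initiator methionine tRNA, and Gcd14 is the catalytic subunit. *GCD10* (YNL062C) read 9.67, 9.77, 9.60 and 9.59 in WT rapamycin, against 12.11, 12.17, 12.38 and 12.34 in WT DMSO (log2 fold change -2.59, SE 0.07, adjusted p = 1.62e-10). *GCD14* (YJL125C) read 11.07, 11.21, 10.88 and 10.88 in WT rapamycin, against 12.53, 12.52, 12.36 and 12.41 in WT DMSO (log2 fold change -1.44, SE 0.08, adjusted p = 2.40e-08). Neither gene had overlapping groups. The difference between the 2 subunits is a description, since it was not tested.

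All 11 genes of tRNA methylation fell at least 2-fold, with a median log2 fold change of -1.71. *TRM11*, which methylates guanosine, fell by 2.22 on the log2 scale and *TRM1*, which makes dimethylguanosine, fell by 2.16. *TRM2*, which makes ribothymidine, had a fold change of -1.71. The 1-methylguanosine enzymes gave -1.46 for *TRM10* and -1.22 for *TRM5*, whose product acts next to the anticodon. *NCL1*, the 5-methylcytosine enzyme, was at -1.30 and *TRM3*, which methylates a guanosine ribose, at -1.28. Trm112, a small activator shared by Trm11 and other methyltransferases, was not among the 39 members, and its transcript fell by 1.28.

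The 3 dihydrouridine synthase genes among the members also fell, *DUS3* most. *DUS3* (YLR401C) read 10.67, 10.70, 10.71 and 10.66 in WT rapamycin, against 12.88, 12.97, 13.03 and 13.05 in WT DMSO (4.91-fold lower, log2 fold change -2.29, SE 0.06, adjusted p = 4.62e-11). The 4 rapamycin arrays were all between 10.66 and 10.71. *DUS1* fell by 1.61 and *DUS4* by 0.95, and *DUS2*, which is not a member, fell by 1.53.

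The 4 genes of other chemistries had smaller changes, with a median of -0.67. *PUS1*, a pseudouridine synthase, fell by 1.14. *TAD2*, the catalytic subunit of the deaminase that makes inosine at the wobble position, fell by 0.90, whereas its partner *TAD3* had a log2 fold change of -0.06 (adjusted p = 0.512). *TAN1*, needed for acetylation of cytidine, fell by 0.43. *MOD5*, which adds an isopentenyl group to adenosine, was at -0.18 with an adjusted p of 0.0458. Its groups overlapped, at 9.52 to 9.86 in rapamycin and 9.84 to 10.00 in DMSO, and its call was lost under 5 alternative settings, not counting stricter thresholds or single arrays left out. The groups of the other 17 modification genes did not overlap, compared with 26.1% of all genes that were lower on every rapamycin array. *TAD2*, *TAN1*, *MOD5* and *DUS1* are among the dimmest 25% of genes by the mean over all 12 arrays. A decrease with rapamycin itself lowers that mean, and the part of dim signal in the size of their changes was not tested. *PUS1* has a paralog, *PUS2*, and how far the probes separate them is not known.

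**Figure D2:**
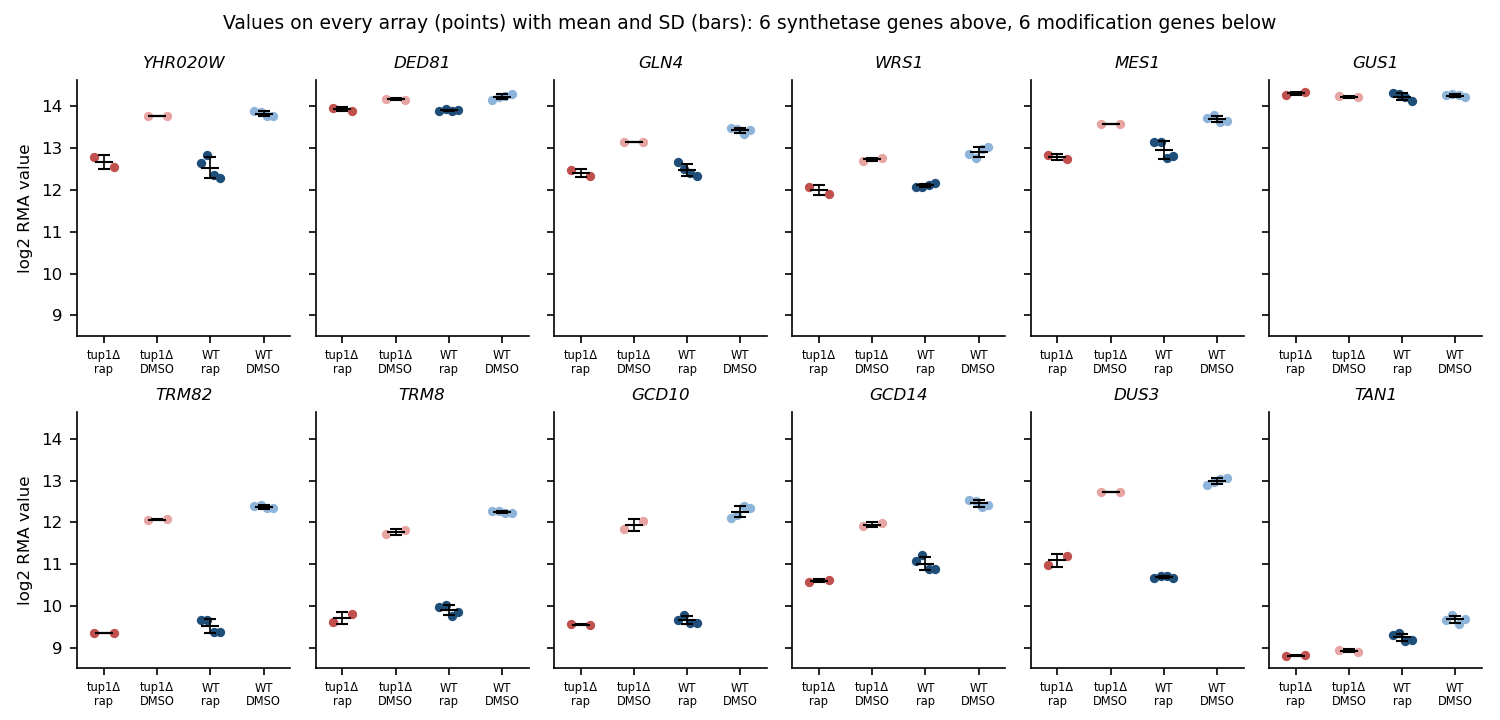
Log2 RMA values (vertical axes) of 6 synthetase genes (upper row) and 6 modification genes (lower row) on all 12 arrays, with group means and SD bars (2 arrays in each *tup1Δ* group and 4 in each WT group). *TRM82*, *TRM8*, *GCD10* and *DUS3* dropped by more than 2 units in WT rapamycin compared with WT DMSO, whereas *GUS1* stayed between 14.12 and 14.34 on all arrays.

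Among the synthetase genes the decreases in WT ranged over more than a log2 unit, and the prolyl-tRNA synthetase gene had the largest. *YHR020W* read 12.64, 12.83, 12.37 and 12.29 in WT rapamycin, against 13.88, 13.88, 13.78 and 13.77 in WT DMSO (2.45-fold lower, log2 fold change -1.29, SE 0.11, adjusted p = 9.67e-07). *GLN4* (YOR168W), the glutaminyl enzyme, read 12.66, 12.50, 12.42 and 12.33 in WT rapamycin and 13.49, 13.45, 13.34 and 13.44 in WT DMSO (1.94-fold lower, adjusted p = 3.70e-07). *WRS1* (YOL097C), the tryptophanyl enzyme, read 12.08, 12.08, 12.12 and 12.16 in WT rapamycin and 12.86, 12.76, 12.97 and 13.03 in WT DMSO (1.74-fold lower, adjusted p = 6.71e-07). These genes were taken from those whose groups did not overlap, so their separation was set by that choice.

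Next in size were *CRS1* (cysteinyl, log2 fold change -0.77), *MES1* (methionyl, -0.73), *CDC60* (leucyl, -0.55) and *YDR341C* (arginyl, -0.53). Another 11 synthetase genes fell by less, with fold changes of -0.44 to -0.26, among them *VAS1* (valyl), *THS1* (threonyl), *TYS1* (tyrosyl), *SES1* (seryl), *HTS1* (histidyl), *DED81* (asparaginyl) and *KRS1* (lysyl). *ALA1* (alanyl) fell by 0.28 and *GRS1* (glycyl) by 0.33. *ILS1* (isoleucyl) fell by 0.14 with an adjusted p of 0.0358, a call that was lost under 4 alternative settings counted in the same way. *DPS1* (aspartyl) was at -0.10 (adjusted p = 0.113) and *GUS1* (glutamyl) at -0.02 (adjusted p = 0.71), and both had overlapping groups. The other 19 synthetase genes were lower on every rapamycin array than on every DMSO array, compared with 26.1% of all genes.

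Subunits and partners of a complex were set side by side, with no test between them. Phenylalanyl-tRNA synthetase is built of the products of *FRS1* and *FRS2*. *FRS1* read 13.86, 13.81, 13.69 and 13.66 in WT rapamycin, against 14.13, 14.18, 14.18 and 14.18 in WT DMSO (log2 fold change -0.41, adjusted p = 3.04e-05). *FRS2* read 14.38, 14.43, 14.23 and 14.26 in WT rapamycin, against 14.54, 14.53, 14.63 and 14.67 in WT DMSO (log2 fold change -0.27, adjusted p = 1.08e-03). Both fell, and both were lower by more in cultures 3 and 4 than in cultures 1 and 2. The call for *FRS2* was lost when only WT replicates 1 and 2 were kept, where its fold change was -0.14. In yeast the methionyl and glutamyl enzymes bind the cofactor Arc1. *MES1* read 13.14, 13.15, 12.76 and 12.81 in WT rapamycin and 13.72, 13.79, 13.63 and 13.65 in WT DMSO (1.66-fold lower, adjusted p = 2.80e-05), whereas *GUS1* did not pass the test and *ARC1* was at -0.04 (adjusted p = 0.395).

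The structural classes of the synthetases had medians of -0.54 for the 10 class I genes, of which 9 fell, and -0.33 for the 11 class II genes, of which 10 fell. The genes listed as also giving the mitochondrial enzyme from the same locus (*ALA1*, *GRS1*, *HTS1* and *VAS1*) had a median of -0.34, and the other 17 had -0.39. Whether genes among those 17, such as *CRS1*, do so too was not examined. *GRS1* fell while its paralog *GRS2*, whose product is known in yeast to be induced by stress, rose by 1.30 (adjusted p = 1.32e-06). *DED81* and *YHR020W* are neighbors transcribed away from each other in R64. Across their shared upstream region the log2 fold changes were -0.32 (SE 0.04) and -1.29 (SE 0.11), and this pair was picked after the values were seen.

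The wider tRNA gene lists placed these classes in context. The 14 genes for synthetases of the mitochondrion moved the other way: 12 rose, 1 (*ISM1*, isoleucyl) fell by 0.20 and *MSM1* (methionyl) was at -0.03, for a median of 0.49. Of all genes, 37.8% rose, 28.4% fell and 7.8% fell at least 2-fold, the background for each count here. *MSF1*, the mitochondrial phenylalanyl enzyme, rose by 1.22 (SE 0.09, adjusted p = 3.66e-07), whereas its cytosolic counterparts *FRS1* and *FRS2* fell. Of 37 further modification genes, 32 fell, 16 of them at least 2-fold, 1 (*UBA4*, of the thiolation pathway) rose by 0.28, and the median was -0.90. *ELP3*, the catalytic subunit of Elongator, which modifies wobble uridine, fell by 2.04, and *RTT10*, a partner of the ribose methyltransferase Trm7, fell by 1.96. Of 19 genes of tRNA processing and export, 15 fell and 2 rose, for a median of -0.33. The 4 that fell at least 2-fold were *TRZ1*, the 3′-end endonuclease (-2.19), *LOS1*, the tRNA exportin (-1.81), *LHP1*, the yeast La protein (-1.71), and *RPP1*, a subunit of RNase P (-1.29). *GCN4*, the activator of amino acid synthesis genes that responds to uncharged tRNA through Gcn2, was at 0.07 (adjusted p = 0.181), and *GCN2* was at 0.05 (adjusted p = 0.504). Only transcripts were measured, so these values do not show whether that response took place. The other general control genes listed, *GCN1* and *GCN20*, fell by 0.19 and 0.23.

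**Figure D3:**
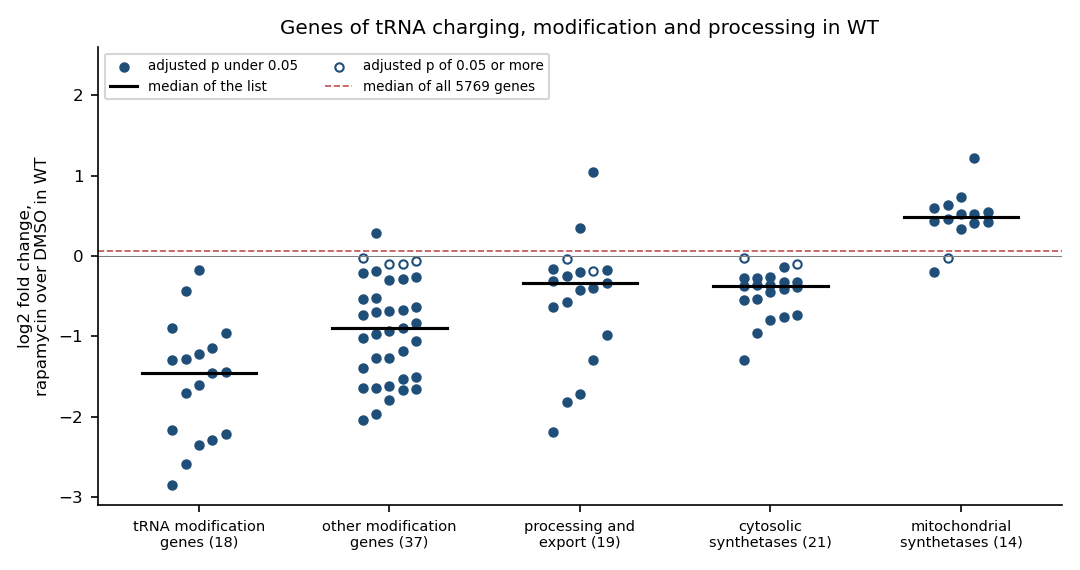
Log2 fold change of rapamycin over DMSO in WT for each gene of 5 lists of tRNA genes. Filled points had an adjusted p under 0.05, bars are list medians (-1.45, -0.90, -0.33, -0.38 and 0.49 from left to right), and the dashed line is the median of all 5769 genes. The cytosolic and mitochondrial synthetase genes lie mostly on opposite sides of 0.

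In *tup1Δ* cells rapamycin gave the same order of the classes. Of the 18 modification genes, 16 fell, 14 of them at least 2-fold, with a median of -1.51. Of the 21 synthetase genes, 17 fell and 1 fell at least 2-fold, with a median of -0.33. No member rose. Over all genes the median was 0.03, 23.5% fell, 6.52% fell at least 2-fold and 29.6% rose. The modification median minus the synthetase median was -1.19, and -1.18 and -1.21 in the 2 pairs of arrays. The count of synthetase genes that fell was 11 without *tup1Δ* DMSO replicate 2.

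*TRM82* read 9.34 and 9.34 in *tup1Δ* rapamycin, against 12.05 and 12.07 in *tup1Δ* DMSO (6.57-fold lower, adjusted p = 5.42e-09). *GCD10* read 9.56 and 9.54 in rapamycin, against 11.84 and 12.04 in DMSO (5.25-fold lower, adjusted p = 1.43e-08). *TRM1* read 10.01 and 10.00 in rapamycin, against 12.26 and 12.24 in DMSO (4.76-fold lower, adjusted p = 1.33e-07). These genes, too, were taken from those without overlapping groups. *TRM8* read 9.61 and 9.80 in rapamycin and 11.72 and 11.83 in DMSO, and *GCD14* read 10.57 and 10.63 in rapamycin and 11.90 and 11.99 in DMSO. As in WT, both subunits of each methyltransferase fell, with log2 fold changes of -2.72 for *TRM82*, -2.07 for *TRM8*, -2.39 for *GCD10* and -1.34 for *GCD14*. *TAN1* (-0.12, adjusted p = 0.249) and *MOD5* (-0.11, adjusted p = 0.386) did not pass the test.

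Of the synthetase genes, *YHR020W* again had the largest decrease, with 12.79 and 12.56 in *tup1Δ* rapamycin, against 13.77 and 13.78 in *tup1Δ* DMSO (2.14-fold lower, adjusted p = 1.08e-04). *MES1* read 12.84 and 12.73 in rapamycin and 13.57 and 13.58 in DMSO (1.73-fold lower, adjusted p = 3.71e-04). *GLN4* read 12.48 and 12.34 in rapamycin and 13.15 and 13.14 in DMSO (1.67-fold lower, adjusted p = 8.88e-05). *WRS1* read 12.08 and 11.92 in rapamycin and 12.70 and 12.76 in DMSO, with a similar decrease of 1.67-fold. *FRS1* was at 13.79 and 13.68 in rapamycin and 14.11 and 14.12 in DMSO, and *FRS2* at 14.41 and 14.36 in rapamycin and 14.63 and 14.61 in DMSO. Both subunits fell, with log2 fold changes of -0.38 and -0.24. The 4 genes that did not pass were *VAS1* (-0.31, adjusted p = 0.0971), *THS1* (-0.24, adjusted p = 0.067), *DPS1* (0.05) and *GUS1* (0.08). With arrays of the same number as a block, *VAS1* (adjusted p = 0.00572) and *THS1* (adjusted p = 0.027) also fell. The groups of all 18 modification genes and of 19 synthetase genes were fully separate in the lower direction, compared with 38.3% of all genes, a large share because each group held only 2 arrays.

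The responses of the strains were close for most members. Across genes, the log2 fold changes in *tup1Δ* and in WT correlated with Pearson's r of 0.949 for the 18 modification genes (Spearman's rho 0.938) and 0.949 for the 21 synthetase genes (rho 0.879). The genes were measured on the same arrays and are not independent replicates. The test of the difference between the responses passed for 1 of the 39 members, *DUS3*, compared with 3.48% of all genes higher and 2.29% lower. *DUS3* read 10.98 and 11.20 in *tup1Δ* rapamycin and 12.73 and 12.72 in *tup1Δ* DMSO, a 3.12-fold decrease, whereas it fell 4.91-fold in WT. The response was therefore smaller in *tup1Δ* by 0.66 on the log2 scale (SE 0.10, adjusted p = 0.00204). It passed under every alternative fit, with differences of 0.55 to 0.76 and adjusted p of 3.64e-04 to 0.0183.

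For the other members the differences of the responses were between -0.31 (*NCL1*, adjusted p = 0.152) and 0.36 (*TRM11*, adjusted p = 0.145). With the replicate block *TAN1* passed as well (0.31, adjusted p = 0.032). The count of differing responses also followed the WT pairs. With only WT replicates 3 and 4, 8 modification and 6 synthetase genes had a higher log2 fold change with rapamycin in *tup1Δ* than in WT. With only WT replicates 1 and 2, this fold change was higher in *tup1Δ* for 1 modification gene and lower for 2 (*NCL1* and *TRM3*). The shares of all genes called in these fits are not given here, so the counts have no background beside them.

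**Figure D4:**
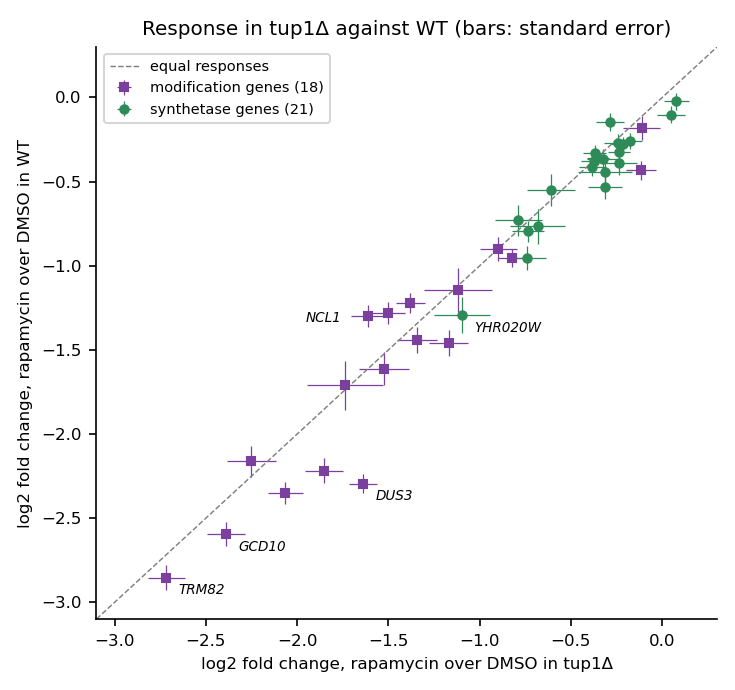
Log2 fold change of rapamycin over DMSO in *tup1Δ* (horizontal axis) and WT (vertical axis) for 18 modification genes (squares) and 21 synthetase genes (circles), with standard errors. Points below the dashed line decreased less in *tup1Δ*, as *DUS3* did at -1.64 in *tup1Δ* and -2.29 in WT.

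Compared in DMSO, a number of modification transcripts were modestly lower in *tup1Δ* than in WT, and most synthetase transcripts had no detected change. With a single deletion strain, the deletion and other differences of that strain cannot be told apart. Of the 18 modification genes, 9 fell and none rose, with a median log2 fold change of -0.26. Of the 21 synthetase genes, 2 fell and none rose, with a median of -0.06. No member changed 2-fold. Over all genes the median was -0.08, 27.3% fell, 15.3% rose and 0.451% fell at least 2-fold. Without *tup1Δ* DMSO replicate 1, 5 of the 18 modification genes fell, and with only WT replicates 3 and 4, 15 did. The shares of all genes that fell in these smaller fits are not given here.

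*TAN1* (YGL232W) fell most. It read 8.94 and 8.90 in *tup1Δ* DMSO, against 9.67, 9.77, 9.57 and 9.68 in WT DMSO (1.69-fold lower, log2 fold change -0.75, SE 0.07, adjusted p = 9.70e-06). The *tup1Δ* DMSO arrays were thus also below the 9.15 to 9.35 of WT rapamycin. *TRM10* read 10.61 and 10.68 in *tup1Δ* DMSO and 11.32, 11.06, 11.11 and 11.18 in WT DMSO (1.44-fold lower, adjusted p = 0.00102). *GCD14* read 11.90 and 11.99 in *tup1Δ* DMSO, against 12.53, 12.52, 12.36 and 12.41 in WT DMSO (1.42-fold lower, adjusted p = 0.0014). The 3 genes were taken from those without overlapping groups, and 40.4% of all genes were lower on both *tup1Δ* arrays than on every WT array. The other 6 that fell were *TRM8* (-0.47), *DUS1* (-0.42), *DUS4* (-0.41), *GCD10* (-0.31), *TRM82* (-0.31) and *DUS3* (-0.26), which include both subunits of each methyltransferase and the 3 dihydrouridine synthase genes among the members. *DUS2*, another dihydrouridine synthase gene and not a member, was at 0.10 (adjusted p = 0.272).

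The synthetase genes that fell were *GLN4*, with 13.15 and 13.14 in *tup1Δ* DMSO against 13.34 to 13.49 in WT DMSO (log2 fold change -0.28, adjusted p = 0.0217), and *KRS1*. *KRS1* read 13.84 and 13.86 in *tup1Δ* DMSO and 14.12, 14.05, 14.10 and 14.15 in WT DMSO (log2 fold change -0.25, adjusted p = 0.0047). *FRS1* (-0.05) and *FRS2* (0.03) did not pass. The count of synthetase genes was 1 without *tup1Δ* DMSO replicate 1, 1 without replicate 2, and 4 with either WT pair alone. The DMSO arrays compared here also entered the rapamycin responses above, which are therefore not independent of these differences.

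In rapamycin, 7 modification genes were lower in *tup1Δ* than in WT and 1, *DUS3*, was higher, with a median of -0.23. Of the synthetase genes, *KRS1* was lower and *YDR341C* higher, with a median of 0.03 for the class. Over all genes the median was -0.09, 27.5% fell, 16.2% rose and 0.867% fell at least 2-fold, and no member was 2-fold apart. *DUS2*, not a member, was also higher, at 0.38 (adjusted p = 0.00127). The strain comparisons in DMSO and in rapamycin use different arrays, but the WT arrays of both come from the same 4 split cultures, so they are not independent.

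*DUS3* read 10.98 and 11.20 in *tup1Δ* rapamycin, against 10.67, 10.70, 10.71 and 10.66 in WT rapamycin (1.32-fold higher, adjusted p = 8.20e-04). *TAN1* read 8.79 and 8.81 in *tup1Δ* rapamycin and 9.29, 9.35, 9.15 and 9.18 in WT rapamycin (1.36-fold lower, adjusted p = 5.28e-04). *NCL1* read 11.28 and 11.18 in *tup1Δ* rapamycin and 11.79, 11.76, 11.50 and 11.58 in WT rapamycin (1.34-fold lower, adjusted p = 0.0016). *GCD14* read 10.57 and 10.63 in *tup1Δ* rapamycin and 11.07, 11.21, 10.88 and 10.88 in WT rapamycin (1.33-fold lower, adjusted p = 0.00537). *TAN1* and *GCD14* had fallen in DMSO too, whereas *NCL1* had not passed there (-0.11, adjusted p = 0.288). *DUS3*, *TAN1*, *NCL1* and *GCD14* were taken from the genes without overlapping groups. Groups did not overlap for 3427 of all 5769 genes. Of all genes, 38.0% were lower on both *tup1Δ* rapamycin arrays than on every WT rapamycin array.

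The remaining 4 were *DUS1* (-0.34), *TRM3* (-0.33), *TRM1* (-0.31) and *DUS4* (-0.28). *TRM1* (adjusted p = 0.0765) and *DUS1* (adjusted p = 0.0668) lost the call with the replicate block. *YDR341C* read 13.53 and 13.55 in *tup1Δ* rapamycin, against 13.15, 13.12, 13.30 and 13.35 in WT rapamycin (1.24-fold higher, adjusted p = 0.0109). *KRS1* read 13.66 and 13.69 in *tup1Δ* rapamycin and 13.76, 13.81, 13.89 and 13.92 in WT rapamycin (1.12-fold lower, adjusted p = 0.0334). The counts were sensitive to single arrays: 3 modification genes were lower without *tup1Δ* rapamycin replicate 1, 2 were higher without WT rapamycin replicate 2, and *KRS1* and *YDR341C* both lost their call when *tup1Δ* rapamycin replicate 1 or replicate 2 was left out. The count of lower synthetase genes was also 0 without WT rapamycin replicate 4 and 2 without WT rapamycin replicate 3. After each array was shifted by the median difference of its genes from their WT DMSO means, 3 modification genes were lower and 2 higher. With only WT replicates 3 and 4, 11 modification genes were lower, 3 were higher and 8 synthetase genes were higher, whereas with only WT replicates 1 and 2, 5 synthetase genes were lower. For these alternative fits the shares of all genes are not given here.

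**Figure D5:**
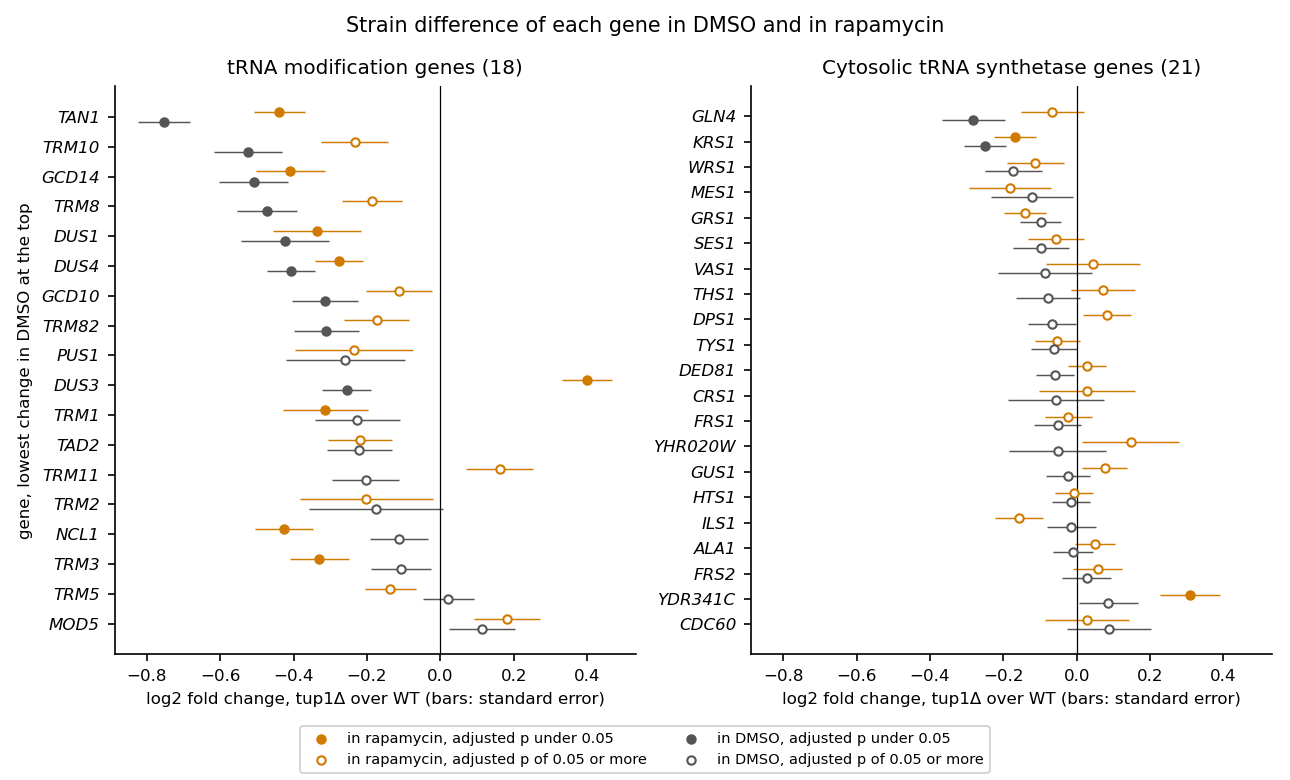
Log2 fold change of *tup1Δ* over WT for each gene in rapamycin (orange) and in DMSO (grey), with standard errors, for 18 modification genes (left) and 21 synthetase genes (right). Filled points had an adjusted p under 0.05. Most modification genes lie left of 0, *DUS3* changes side between the treatments (0.40 in rapamycin and -0.26 in DMSO), and most synthetase genes lie within 0.2 of 0.

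Across all 4 groups, the 2 classes were thus set apart by rapamycin more than by the strain. Against each gene's own mean in WT DMSO, the median modification gene was at -1.85 and -1.78 on the *tup1Δ* rapamycin arrays, -0.30 and -0.22 on the *tup1Δ* DMSO arrays and -1.52 to -1.38 on the WT rapamycin arrays. The median synthetase gene was at -0.39 and -0.41 on the *tup1Δ* rapamycin arrays, -0.06 and -0.05 on the *tup1Δ* DMSO arrays and -0.43 to -0.32 on the WT rapamycin arrays. The WT DMSO arrays lay between -0.03 and 0.04 for modification genes and between -0.01 and 0.01 for synthetase genes. The modification minus the synthetase median was -1.19 for rapamycin in *tup1Δ* and -1.07 in WT, and -0.25 for *tup1Δ* against WT in rapamycin and -0.20 in DMSO. Of the mitochondrial synthetase genes, 10 of 14 rose with rapamycin in *tup1Δ* too (median 0.44), compared with 29.6% of all genes. They included 7 of 14 that were lower in *tup1Δ* than in WT in rapamycin and 7 of 14 in DMSO, compared with 27.5% and 27.3% of all genes. *SLM5* was at 0.11 in rapamycin and 0.14 in DMSO, and neither passed the test.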

How the data were processed

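The authors extracted total RNA with hot phenol and made double-stranded cDNA from it. Per the paper's methods, the cDNA was labeled with Cy3 and hybridized to NimbleGen arrays. The deposited table holds log2 values that, per the labels, were made by RMA. For the arrays, the genome build and probe list are not given in the sources used here. Of 5872 rows, 103 were empty on all arrays and 5769 genes were tested. Array medians lay between 11.48 and 11.52, and precision is set by how few arrays each group holds.

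Group means were fitted with limma 3.58.1 in R 4.3.3 over all 12 arrays, with 8 residual degrees of freedom and Benjamini-Hochberg adjustment over the 5769 genes. Reported p-values and standard errors come from that fit. On simulated data for rapamycin in WT, over 5769 genes, 88% of changes of 0.5 and 98% of changes of 1 (log2) were recovered. For the difference between strains these shares were 63% and 92%. The simulated arrays were drawn independently of each other, and 200 genes were changed in each comparison. The real arrays share cultures and many more genes were called, so these shares do not give the recovery in the real data.

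WT arrays of 1 number come from 1 culture, and their deviations from the group means correlated (0.745, 0.119, 0.531 and 0.535). In *tup1Δ* this was 0.0637. The replicate block was an alternative setting, next to scaling, filters on dim genes, the samples fitted, the thresholds, 1 array left out and either pair of WT cultures. Averaging WT replicates 3 and 4 into 1 sample was chosen after seeing the data.

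The members and gene lists were chosen with earlier results of these data known. Values on every array are given for the up to 3 members of each class that rose or fell most without overlap, for members whose response differed between strains, and for subunits of 1 enzyme. Names matched the R64 table for 5763 genes. Matching ChIP-seq data and promoter sequences were not analysed here.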

Additional observations from a re-analysis of the deposited data

Results flagged for a closer look

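The response of *DUS3* to rapamycin differed between the strains. Its log2 fold change was -1.64 in *tup1Δ* and -2.29 in WT, a difference of 0.66 (SE 0.10, limma adjusted p = 0.00204), and all 6 pairs of arrays showed the decrease.

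Single arrays stood apart in 4 of the 78 WT groups of 4 arrays examined, where 1 in 20 groups, here 3.9, would do so by chance. The measure is the gap of the extreme array to its nearest neighbor as a share of the range. In WT rapamycin, *ILS1* was low on replicate 3 at 13.61, against 13.76 to 13.79 on the other arrays (0.852). In WT DMSO, *FRS1* was low on replicate 1 at 14.13, against 14.18 on the others (0.933). *TRM5* was low on the same array at 12.39, against 12.52 to 12.53 (0.897). *MOD5* was high on replicate 2 at 10.00, against 9.84 to 9.86 (0.873).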

How the results depend on the processing

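The decrease of both class medians with rapamycin and the order of the classes held under every alternative tried. Where 2 medians are given, the modification genes come first. With 1 WT array left out, 17 to 18 modification and 18 to 19 synthetase genes fell in WT, and the class difference was -1.11 to -1.02. With 1 *tup1Δ* array left out, 16 modification and 11 to 13 synthetase genes fell in *tup1Δ*. Medians then were -1.48 to -1.41 and -0.42 to -0.36 in WT, and -1.57 to -1.46 and -0.35 to -0.31 in *tup1Δ*, and the class difference in *tup1Δ* was -1.22 to -1.15. For *tup1Δ* against WT, 1 array left out gave 5 to 10 modification and 1 to 3 synthetase genes lower in DMSO. In rapamycin it gave 3 to 8 modification genes lower, 1 to 2 higher, and 0 to 2 synthetase genes lower and 0 to 1 higher. Medians over the same fits were -0.30 to -0.22 and -0.063 to -0.049 in DMSO, and -0.29 to -0.19 and -0.040 to 0.041 in rapamycin. Class differences were -0.24 to -0.17 in DMSO and -0.33 to -0.19 in rapamycin. For the difference of the responses, 1 modification gene was higher throughout, the medians were 0.05 to 0.14 and 0.04 to 0.08, and the class difference was -0.033 to 0.069.

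With the replicate block, 2 modification genes were higher in the difference of the responses. *THS1* and *VAS1* fell in *tup1Δ*, *TRM1* and *DUS1* lost their call in rapamycin, and it changed no other call. With only WT replicates 1 and 2, the WT medians were -1.37 and -0.30. For *tup1Δ* against WT, 4 synthetase genes were lower and 1 higher in DMSO with a median of -0.040, and 5 were lower in rapamycin with a median of -0.10. The class difference in rapamycin was -0.18, 2 modification genes were lower in the difference of the responses, and its medians were 0.019 for modification and -0.0076 for synthetase genes, the opposite sign to all arrays. *CDC60* (-0.17) and *CRS1* (-0.20) then lay below WT in rapamycin, also with the opposite sign. With only WT replicates 3 and 4, the WT synthetase median was -0.48 and the class difference -1.01. In DMSO, 15 modification genes were lower and 1 higher with a median of -0.39, 4 synthetase genes were lower, and the class difference was -0.34. In rapamycin, 11 modification genes were lower and 3 higher, and 8 synthetase genes were higher. In the difference of the responses, 8 modification and 6 synthetase genes were higher, with medians of 0.20 and 0.14. With WT replicates 3 and 4 averaged, 0 synthetase genes were lower in rapamycin, with a median of -0.037 and a class difference of -0.19.

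Shifted to the median gene, the synthetase median was 0.018 for *tup1Δ* against WT in DMSO, the opposite sign, 0.12 in rapamycin, and -0.36 for rapamycin in *tup1Δ*. The modification medians were -0.18 in DMSO and -0.13 in rapamycin. Synthetase genes lower were 1 in DMSO and 0 in rapamycin, and modification genes in rapamycin were 3 lower and 2 higher. Centred on array medians, the synthetase median in DMSO was -0.073. Without the dimmest 25% of genes, 14 modification genes remained to be tested, with medians of -1.59 in WT and -1.63 in *tup1Δ* and class differences of -1.21 and -1.30. With only the groups compared, 0 synthetase genes were lower in rapamycin. At an adjusted p under 0.01, 5 modification genes and 1 synthetase gene were lower in DMSO, and 0 synthetase genes were lower and 0 higher in rapamycin. With a fold of at least 2, 1 synthetase gene fell in WT and 1 in *tup1Δ*, and counts for the strain comparisons and their difference were 0. Apart from the fewer genes or arrays that an alternative leaves, the cause was not tested. Shares over all genes under the alternatives are not given here, so the counts have no background of the same fit.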
